A study of Mus musculus with 30 samples.

Results

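The Sp transcription factor family was followed through 5 genes, Sp1, Sp2, Sp3, Sp4 and Sp5, taken by gene symbol from the RNA sequencing table of the series, and all 5 were found among its 14685 genes. Mouse E14 ESC (an embryonic stem cell line) were studied as WT cells, as an Sp1ΔDBD/ΔDBD line lacking the DNA-binding domain of Sp1, and as an Sp3-/- line. Each genotype was sampled as ESC, as Flk1+ mesodermal cells purified from embryoid bodies, and as 3 KIT+ populations sorted at day 2 of blast culture, with 2 replicates in each of the 15 groups. These 3 were HE1, with Tie2 but without CD41, HE2, with both of these surface proteins, and progenitor cells, with CD41 but without Tie2. The question addressed by the family is whether the level of one Sp gene changed when another was mutated. Each genotype is a single line, so that genotype and line cannot be told apart, and Sp1ΔDBD/ΔDBD cells still make a truncated Sp1 protein. ESC had been kept on feeder cells until shortly before differentiation. No added agent is described as separating the genotypes. The paper states that the time in embryoid body culture depended on the cell line. The time at which Flk1+ cells were taken may therefore differ between the genotypes, and this was not separated from genotype. The populations differed in medium. ESC were kept with ESGRO, and embryoid bodies were made without leukemia inhibitory factor. Blast culture medium held VEGF, an interleukin and conditioned medium. Comparisons between populations therefore hold differences of medium as well as of cell type, and these were not separated.

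Sp proteins bind GC-rich promoter elements, the GC boxes, through closely similar zinc fingers. Sp1 and Sp3 are present in nearly all cells and compete for the same sites, with Sp1 acting mainly as an activator and Sp3 as an activator or a repressor. Sp4 binds the same sites but is best known from the nervous system, Sp2 is a divergent member that also occupies CCAAT elements together with NF-Y, and Sp5 is a direct Wnt target of the primitive streak that represses transcription.

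On the GRCm38 (mm10) annotation, Sp1 lies on the plus strand of chromosome 15 from 102406143 to 102436404. Sp2 lies on the minus strand of chromosome 11 from 96953341 to 96982959. Sp3 lies on the minus strand of chromosome 2 from 72936427 to 72980446, and Sp5 on the plus strand of the same chromosome from 70474923 to 70477729. Sp4 lies on the minus strand of chromosome 12 from 118234933 to 118301440. An antisense gene, Sp3os, shares 1023 bases with Sp3, and D030028A08Rik shares 11720 bases with Sp2 on the opposite strand. Alignment and counting were run at the default settings of their tools, which set no strand, so reads of these pairs cannot be told apart with certainty.

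The promoters of the genes on which the results turn are printed 5′ to 3′ from RefSeq (GRCm38.p6), since the mutated proteins recognise GC boxes. Each is the stretch upstream of an annotated start that lies outside annotated exons. Capitals mark GC boxes, searched as GGGCGG on both strands, and in Sp5 also the core letters of a TCF/LEF element, searched as CTTTGA on both strands.
Sp4, chr12:118301441-118301690, minus strand: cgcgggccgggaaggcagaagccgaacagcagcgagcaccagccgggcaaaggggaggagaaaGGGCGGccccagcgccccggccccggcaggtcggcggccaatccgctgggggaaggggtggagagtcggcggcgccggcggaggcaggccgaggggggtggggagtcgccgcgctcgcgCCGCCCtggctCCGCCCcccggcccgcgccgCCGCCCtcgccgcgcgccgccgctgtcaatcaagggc
Sp3, chr2:72980447-72980696, minus strand: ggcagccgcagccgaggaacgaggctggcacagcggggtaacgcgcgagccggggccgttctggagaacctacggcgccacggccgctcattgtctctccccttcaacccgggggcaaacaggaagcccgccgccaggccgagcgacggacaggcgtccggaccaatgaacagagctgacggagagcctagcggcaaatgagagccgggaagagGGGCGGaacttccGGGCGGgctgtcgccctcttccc
Sp1, chr15:102406066-102406142, plus strand: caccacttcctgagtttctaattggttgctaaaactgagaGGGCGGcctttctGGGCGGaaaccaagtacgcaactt
Sp5, chr2:70474673-70474922, plus strand: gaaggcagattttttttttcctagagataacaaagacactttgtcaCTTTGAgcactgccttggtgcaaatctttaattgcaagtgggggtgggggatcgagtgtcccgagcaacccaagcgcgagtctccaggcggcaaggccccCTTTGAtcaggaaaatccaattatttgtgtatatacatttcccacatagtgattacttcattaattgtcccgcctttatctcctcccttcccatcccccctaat

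The Sp4 window of 250 bases was 80.0% G and C and held 4 GC boxes, a number reached by 4.09% of 32851 RefSeq promoter windows of the same length. The printed Sp3 window held 2 GC boxes, and the window of a second RefSeq start of Sp3 (72979281), which lies within annotated exons, was 77.2% G and C and held 5, while the whole window of 250 bases before the RefSeq start of Sp1 held 4, of which 2 lie in the printed 77 bases. The Sp5 window held no GC box but 2 TCF/LEF cores, found in 1.37% of windows. Sp2 has 3 RefSeq starts, and the window of one of them held 6 CCAAT letters (CCAAT on both strands) and 1 GC box, while the other two held neither. At least 1 GC box was present in 32.7% of all windows, at least 1 CCAAT in 33.8% and at least 1 TCF/LEF core in 13.8%. These matches describe letters and are not binding sites shown here.

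The marker genes matched the labelled populations in part. Summed over 6 genes each, ESC markers reached 1100 to 1350 FPKM in ESC libraries and Flk1+ mesoderm markers 357 to 657 FPKM in Flk1+ libraries. Endothelial markers reached 762 to 1160 FPKM in HE1 libraries and blood progenitor markers 252 to 399 FPKM in progenitor libraries. The Flk1+ mesoderm sums overlapped those of HE1 libraries, at 259 to 400 FPKM. HE2 libraries had 369 to 572 FPKM of endothelial and 164 to 246 FPKM of blood progenitor markers. In WT HE1 libraries muscle markers had 356 to 1700 FPKM, beside 807 to 1120 FPKM of endothelial markers. FPKM are fragments per kilobase of gene scaled to the sequenced fragments, here quantile-normalised so that all libraries share one distribution, with a library median of 7.19 FPKM. The depth of the libraries is unknown. Y-linked genes separated the Sp3-/- line from WT. Ddx3y had 1.91 to 4.04 FPKM in the 10 Sp3-/- libraries and 6.96 to 13.6 FPKM in the 10 WT libraries, Eif2s3y 6.53 to 13.5 against 13.8 to 32.4 FPKM, and Uty 1.27 to 3.35 against 5.52 to 10.2 FPKM. In the 10 Sp1ΔDBD/ΔDBD libraries each of these genes overlapped the WT range when all populations were pooled. Their medians there were 6.25 FPKM for Ddx3y, 25.5 for Eif2s3y and 11.6 for Uty, against WT medians of 9.56, 22.9 and 7.33 FPKM. Within every population, however, both Sp1ΔDBD/ΔDBD libraries of Uty lay above both WT libraries, as did those of 2.44% of all genes tested. In HE1 its values were 7.84 and 11.4 against 5.52 and 5.72 FPKM. The part of such line differences in the results on either mutant was not tested.

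In WT cells Sp1 and Sp3 were the abundant members, Sp2 and Sp4 were low, and Sp5 was detected above 1 FPKM in Flk1+ cells alone. FPKM are per gene length, and on this scale the levels of different genes were set beside each other. The genes differ in GC content, from 39.9% for Sp4 to 62.0% for Sp5, and Sp2 and Sp3 overlap other genes. The part of these differences in the shares was not tested. Sp1 made up 34.6% to 49.7% of the summed FPKM of the 5 genes and Sp3 41.3% to 54.7%. Sp4 made up 1.98% to 3.23% and Sp2 4.71% to 7.48%.

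**Figure D1:**
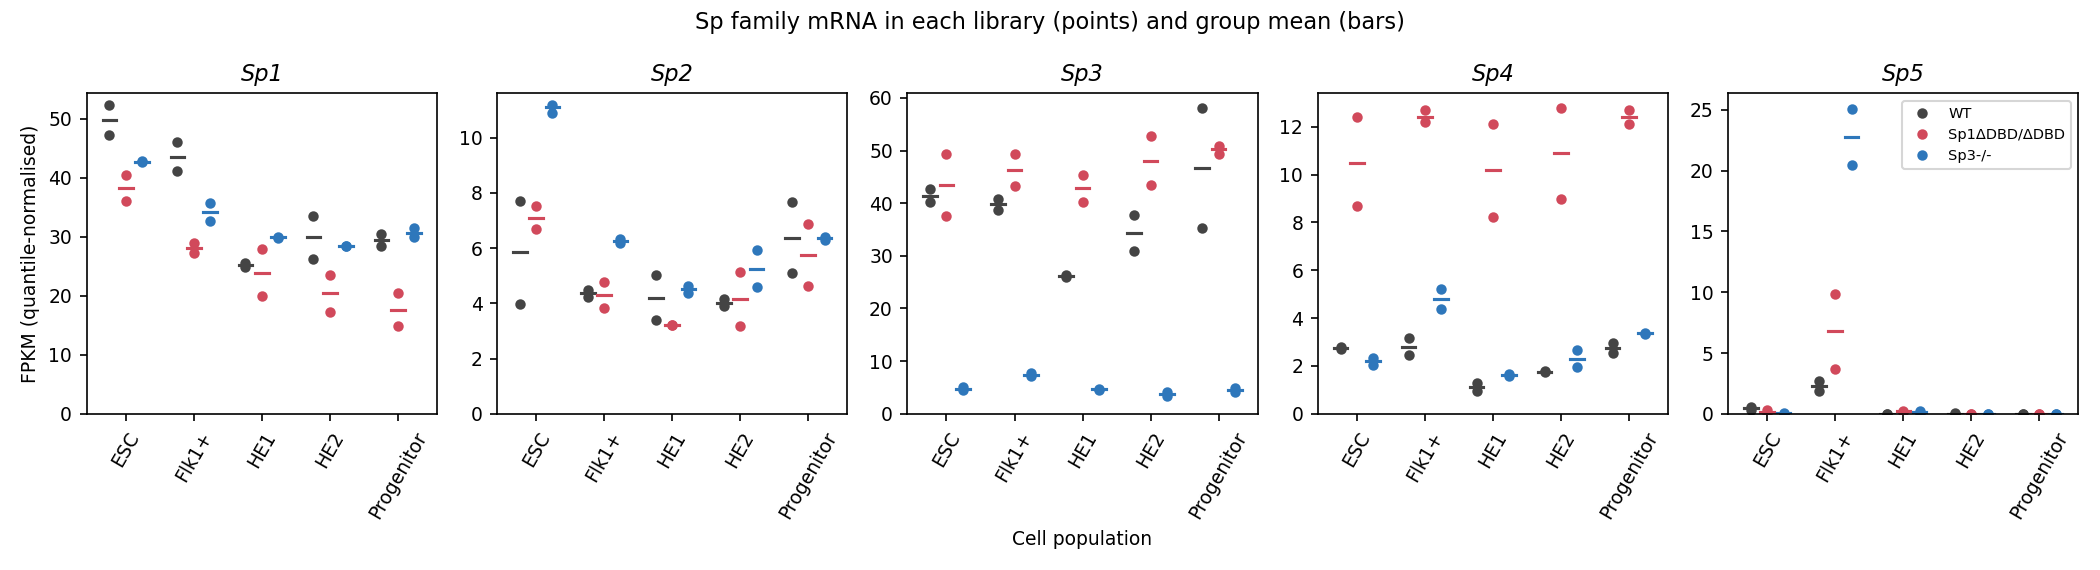
FPKM (vertical axes, linear, one scale per gene) of the 5 Sp genes in each library (points) with the group mean (bar), by cell population, for WT (grey), Sp1ΔDBD/ΔDBD (red) and Sp3-/- (blue) cells. Sp4 is highest in the red points of every population, at 8.23 to 12.8 FPKM, and Sp5 in the blue points of Flk1+ cells, at 25.1 and 20.5 FPKM.

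Across the WT populations Sp1 ranked ESC (49.8 ± 3.55 FPKM, SD, n = 2), Flk1+ (43.6 ± 3.43), HE2 (29.9 ± 5.10), progenitor (29.5 ± 1.3) and HE1 (25.2 ± 0.514), where the replicates of HE2 and progenitor cells overlapped. Sp3 ranked progenitor (46.7 ± 16.1 FPKM), ESC (41.4 ± 1.75), Flk1+ (39.8 ± 1.49), HE2 (34.3 ± 4.79) and HE1 (26.1 ± 0.319), and its first 3 places overlapped. Sp4 ranked Flk1+ (2.81 ± 0.496 FPKM), ESC (2.76 ± 0.0597), progenitor (2.75 ± 0.279), HE2 (1.75 ± 0.0289) and HE1 (1.12 ± 0.216), again with 3 overlapping first places. Sp2 lay between 4.03 and 6.38 FPKM, and all neighbours in its order overlapped. Thus Sp1, Sp3 and Sp4 shared their lowest place, HE1.

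From Flk1+ to HE1 cells 4 of the 5 genes fell in WT, at a step at which 29.5% of the 14525 genes tested were called lower. The comparisons were made with limma on log2(FPKM + 0.1), and a call is a Benjamini-Hochberg adjusted p under 0.05 over all genes tested. Sp1 fell by 0.78 on the log2 scale (standard error 0.168, limma adjusted p = 0.000635), Sp3 fell by 0.60 (standard error 0.186, limma adjusted p = 0.0102) and Sp4 fell by 1.25 (standard error 0.229, limma adjusted p = 0.000143). The fall of Sp3 was not called without 1 library, Flk1+ WT replicate 1 (a fall by 0.57, limma adjusted p = 0.0591), and with a GC and length correction the log2 difference was -0.22 (limma adjusted p = 0.215). Sp5 fell from 2.72 and 1.90 FPKM to the lowest value of each library. It had been higher in Flk1+ cells than in ESC by 2.18 (standard error 0.524, limma adjusted p = 0.00174), where 27.4% of genes were called higher.

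Sp1, the founding member, retained most of its signal in Sp1ΔDBD/ΔDBD cells. Its 2 libraries gave 14.8 and 20.5 FPKM for progenitor cells, 17.2 and 23.5 for HE2, 19.9 and 27.9 for HE1, 27.2 and 28.9 for Flk1+ cells and 36.0 and 40.5 for ESC, between 59.8% and 94.7% of the WT mean. In HE1 the replicates lay on both sides of the WT libraries, and in the other populations both lay below. In the blast culture the second replicate was the higher in all 3 populations. The mean change over the 5 populations was a log2 fold change of -0.49 (95% interval -0.64 to -0.33, limma adjusted p = 6.90e-05, and 0.0583 with replicates averaged over the populations, beside 31.9% of genes called in this mean). The gene-level value holds the deleted exons too, so lost sequence and lower transcription cannot be told apart. As in all bulk samples, fewer cells with a transcript and less of it per cell cannot be told apart either.

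In Sp3-/- cells Sp1 was not called in any population. On the log2 scale it differed from WT by 0.06 for progenitor cells, -0.06 for HE2, 0.25 for HE1, -0.35 for Flk1+ cells and -0.22 for ESC. The mean over the populations was -0.07 with a 95% interval from -0.22 to 0.09 (limma adjusted p = 0.514), and with a GC and length correction the mean turned to 0.12 (limma adjusted p = 0.103). In HE1 cells both Sp3-/- libraries, at 30 and 29.8 FPKM, were above the WT libraries at 25.6 and 24.9 FPKM. In Flk1+ cells both, at 32.7 and 35.7 FPKM, were below 41.2 and 46.0 FPKM. In ESC both, at 42.6 and 42.9 FPKM, were below 47.3 and 52.4 FPKM.

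Sp3 was lower in all 5 Sp3-/- populations. The Sp3-/- libraries held 3.38 to 7.79 FPKM and the WT libraries 25.9 to 58.1 FPKM, and the percentage of the WT mean was 9.55% for progenitor cells, 11% for HE2, 17.8% for HE1, 18.7% for Flk1+ cells and 11.5% for ESC. Which part of the gene the remaining reads came from is not shown by gene-level values. The overlapping Sp3os lay between 0.877 and 2.86 FPKM in the same libraries.

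In Sp1ΔDBD/ΔDBD cells Sp3 was higher than in WT in HE1. The values were 40.3 and 45.3 FPKM against 25.9 and 26.3 FPKM in WT, with no overlap, a log2 difference of 0.71 (standard error 0.186, limma adjusted p = 0.0210). The call was lost without WT replicate 1, WT replicate 2 or Sp1ΔDBD/ΔDBD replicate 2 (0.62 to 0.79 over the 4 libraries left out, limma adjusted p at most 0.169) and with HE1 fitted alone (limma adjusted p = 0.0633). In HE2 the values were 43.5 and 52.7 against 37.7 and 30.9 FPKM (0.49, limma adjusted p = 0.107), and in ESC 37.5 and 49.3 against 40.2 and 42.7 FPKM (0.06, limma adjusted p = 0.947). Flk1+ cells gave 0.22 and progenitor cells 0.15, the latter with WT replicates at 58.1 and 35.3 FPKM. The overlapping Sp3os rose in the same HE1 cells, from 0.670 and 1.16 to 2.39 and 1.83 FPKM (1.15, limma adjusted p = 0.0303), and in progenitor cells, from 2.17 and 1.91 to 5.36 and 4.09 FPKM (1.16, limma adjusted p = 0.0304), and its part in the Sp3 values was not tested. The mean of Sp3 over the populations was 0.32 (95% interval 0.15 to 0.50, limma adjusted p = 0.00602), and with replicates averaged over the populations the same value had a limma adjusted p of 0.132. The population means of Sp3 ranged 1.17-fold in Sp1ΔDBD/ΔDBD and 1.79-fold in WT cells. Muscle markers, summed over 6 genes, moved within HE1 as well, with 356 to 1700 FPKM in WT, 248 to 996 FPKM in Sp1ΔDBD/ΔDBD and 123 to 195 FPKM in Sp3-/- libraries, and fibroblast markers with 40.5 to 296, 14.9 to 132 and 21.5 to 30.7 FPKM. Their part in the HE1 results was not tested.

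Sp4 showed the largest change of any Sp gene in Sp1ΔDBD/ΔDBD cells by mean over the populations, and it rose in all 5. In ESC it had 8.67 and 12.4 FPKM against 2.81 and 2.72 FPKM in WT. In Flk1+ cells it had 12.2 and 12.7 against 3.16 and 2.46 FPKM. In HE1 cells it had 8.23 and 12.1 against 0.972 and 1.28 FPKM. In all these populations every mutant library was above every WT library. In HE2 cells Sp4 had 8.99 and 12.8 against 1.73 and 1.77 FPKM. In progenitor cells it had 12.1 and 12.7 against 2.95 and 2.55 FPKM. The 10 mutant libraries, from 8.23 to 12.8 FPKM, did not overlap the 10 WT libraries, from 0.972 to 3.16 FPKM. Of all genes tested, 2.44% had both mutant libraries above both WT libraries in each of the 5 populations.

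On the log2 scale the rise of Sp4 was largest for HE1, at 3.05 (standard error 0.229, limma adjusted p = 6.71e-08), followed by HE2 at 2.55 (limma adjusted p = 6.88e-07), progenitor cells at 2.13 (limma adjusted p = 9.63e-06), Flk1+ cells at 2.12 (limma adjusted p = 1.46e-05) and ESC at 1.87 (limma adjusted p = 6.66e-05). In this order these are folds of 8.30, 5.85, 4.39, 4.34 and 3.66. With ESC fitted alone the limma adjusted p was 0.0578. Sp4 was 1 of 25 genes, 0.172% of those tested, that were called higher in all 5 populations of Sp1ΔDBD/ΔDBD cells. By the mean over the populations, a 5.08-fold rise (95% interval 4.38 to 5.90), it stood at place 11 of 14525 genes, and it was called with replicates averaged over the populations. The interval treats the libraries as independent, which those of blast culture were not in full.

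The WT difference between populations was smaller in the mutant. The population means of Sp4 spanned 2.50-fold in WT, lowest in HE1 and highest in Flk1+ cells, and 1.22-fold in Sp1ΔDBD/ΔDBD cells. The change in HE1 exceeded that in ESC by 1.18 on the log2 scale (95% interval 0.50 to 1.86, limma adjusted p = 0.0456), at a comparison in which 3.99% of genes were called. The call was lost without ESC WT replicate 1 or 2, HE1 WT replicate 1, ESC Sp1ΔDBD/ΔDBD replicate 1 or HE1 Sp1ΔDBD/ΔDBD replicate 2 (0.91 to 1.46 over the 8 libraries left out, limma adjusted p at most 0.229). It was also lost with a pseudocount of 1, with a correction for GC content and length and with chromosome centring. The change in Flk1+, HE2 and progenitor cells exceeded that in ESC by 0.25, 0.68 and 0.26, none of them called, at comparisons in which 1.74%, 2.62% and 3.15% of genes were.

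**Figure D2:**
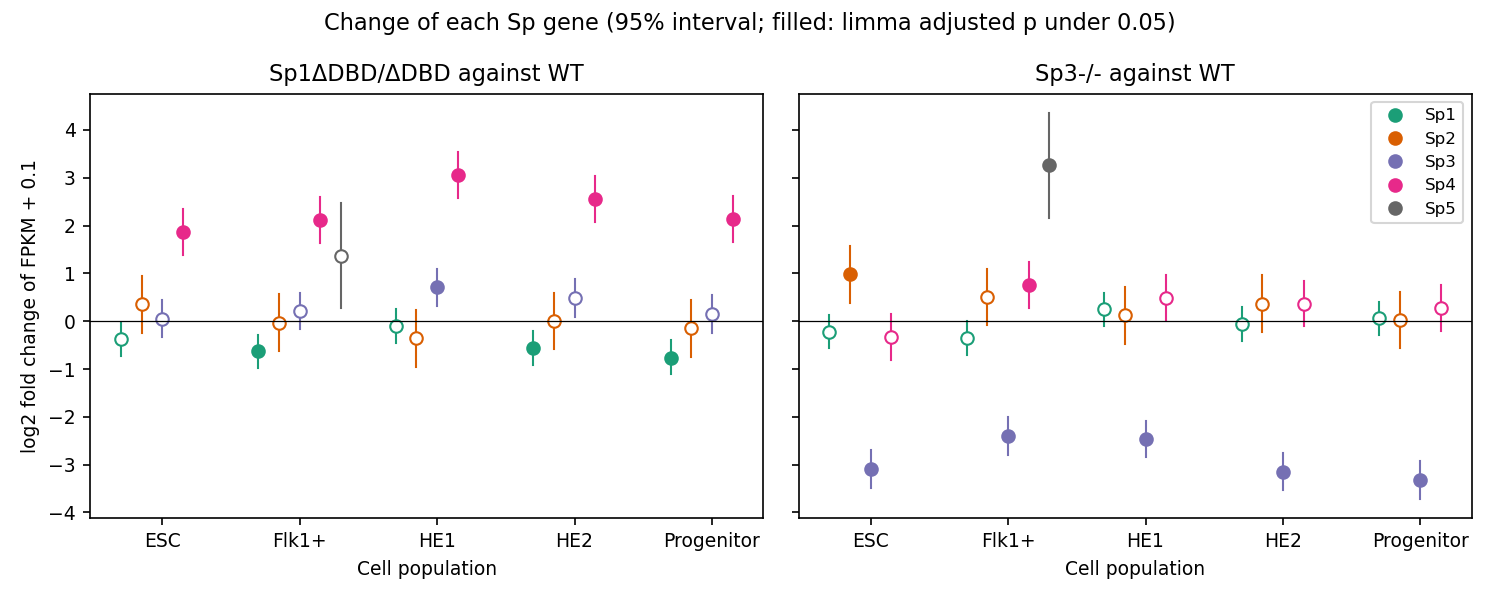
Log2 fold change of FPKM + 0.1 against WT (vertical axis) with its 95% interval for each Sp gene by population, in Sp1ΔDBD/ΔDBD (left) and Sp3-/- (right) cells, with filled points for a limma adjusted p under 0.05. Sp4 is filled in all 5 populations on the left, from 1.87 to 3.05, and Sp5 is drawn in Flk1+ cells only, where it was above 1 FPKM.

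In Sp3-/- cells Sp4 was called in 1 population. It had 3.35 and 3.38 FPKM in progenitor cells against 2.95 and 2.55 in WT, and 1.94 and 2.68 against 1.73 and 1.77 in HE2. In HE1 it had 1.65 and 1.57 against 0.972 and 1.28 FPKM, and in ESC 2.05 and 2.32 against 2.81 and 2.72 FPKM. The log2 differences, in this order 0.28, 0.37, 0.49 and -0.33, were not called. In Flk1+ cells it had 4.40 and 5.20 against 3.16 and 2.46 FPKM, a log2 difference of 0.76 (standard error 0.229, limma adjusted p = 0.0361). That call was lost without any 1 of the 4 libraries (0.58 to 0.93, limma adjusted p from 0.0559 to 0.304) and with Flk1+ cells fitted alone (0.0556). The mean over the populations was 0.32 (95% interval 0.10 to 0.53, limma adjusted p = 0.0193, beside 40.5% of genes called), and 0.216 was the limma adjusted p with replicates averaged over the populations. Set directly against Sp1ΔDBD/ΔDBD cells, Sp4 had log2 fold changes of -2.20, -1.36, -2.56, -2.18 and -1.85 in ESC, Flk1+, HE1, HE2 and progenitor cells, and each was called (limma adjusted p at most 0.00124), where 9.67%, 7.39%, 13.6%, 15.9% and 11.6% of genes were called.

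Of the genes around Sp4, the 5 above 1 FPKM on average changed less than Sp4. The nearest gene tested on one side was Cdca7l, 356 kb away, with log2 fold changes of 0.04, 0.13, 0.42, 0.18 and 0.07 in ESC, Flk1+, HE1, HE2 and progenitor cells of the Sp1ΔDBD/ΔDBD genotype, of which that in HE1 was called (limma adjusted p = 0.0484). On the other side it was Sp8, 545 kb away, with log2 differences of 1.41 in ESC (0.209 and 0.311 against 0.0206 and 0.0493 FPKM, limma adjusted p = 0.0539) and 1.19 in Flk1+ cells (limma adjusted p = 0.114). Its mean over the populations was called (0.64, limma adjusted p = 0.0144). The 5 neighbours above 1 FPKM lay between -0.79 and 0.42 over the populations, and the median of 421 genes of chromosome 12 between 0 and 0.11. Chromosome 11, which holds Sp2, had medians over 1006 genes of -0.12 to -0.36 in Sp1ΔDBD/ΔDBD and of -0.12 to -0.28 in Sp3-/- cells.

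**Figure D3:**
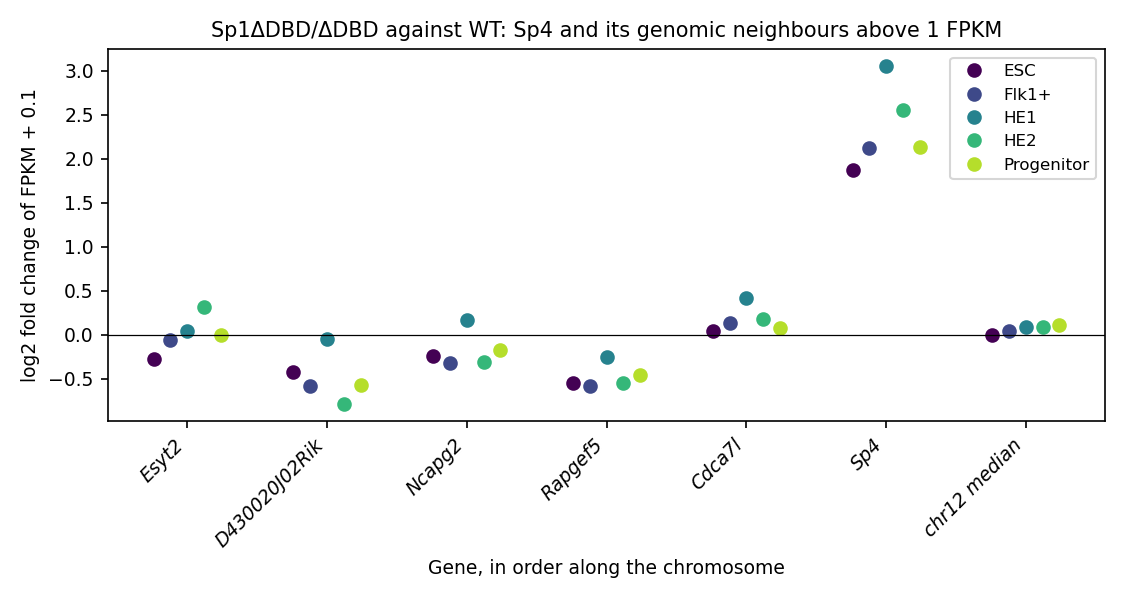
Log2 fold change of FPKM + 0.1 in Sp1ΔDBD/ΔDBD against WT cells (vertical axis) for Sp4, the 5 genomic neighbours above 1 FPKM on average and the median of chromosome 12, with 1 point per population. Sp4 lies between 1.87 and 3.05 and each of the others drawn at or below 0.42. Sp8, the nearest gene on the other side, is below 1 FPKM on average and is not drawn, and its values were 1.41 in ESC and 1.19 in Flk1+ cells.

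Sp2 was called against WT in 1 population and in 1 mean over the populations, both of Sp3-/- cells. In Sp3-/- ESC it had 10.9 and 11.2 FPKM against 3.99 and 7.72 FPKM in WT, above both, a log2 difference of 0.98 (standard error 0.284, limma adjusted p = 0.0315). The WT replicates differed by nearly as much as the groups. The call was lost without WT replicate 1, Sp3-/- replicate 1 or Sp3-/- replicate 2 (0.51 to 1.45 over the 4 libraries left out, limma adjusted p at most 0.388), with a GC and length correction (0.83, limma adjusted p = 0.1) and with ESC fitted alone (0.155). The other Sp3-/- populations differed from WT by 0.51 for Flk1+, 0.36 for HE2, 0.12 for HE1 and 0.02 for progenitor cells. The Sp3-/- mean was 0.40 (95% interval 0.13 to 0.67, limma adjusted p = 0.0170). It was not called with replicates averaged over the populations (0.0822) or with the GC and length correction (0.31, limma adjusted p = 0.0712), and it was 0.64 with chromosome centring. In Sp1ΔDBD/ΔDBD cells it ran from -0.36 in HE1 to 0.35 in ESC, and the mean over the populations was -0.04 (95% interval -0.30 to 0.23).

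Sp5 was called higher in Sp3-/- Flk1+ cells, at 25.1 and 20.5 FPKM against 2.72 and 1.90 FPKM in WT and 9.86 and 3.69 FPKM in Sp1ΔDBD/ΔDBD cells. The libraries of both mutants lay above those of WT, and both Sp3-/- libraries above both Sp1ΔDBD/ΔDBD libraries. Such separation of 2 libraries from 2 is not a call, and the share of all genes showing it is not given here. On the log2 scale Sp3-/- cells were higher by 3.26 (standard error 0.524, limma adjusted p = 0.000811), a 9.58-fold rise (95% interval 4.48 to 20.5) at place 15 of 14525 genes, where 6.69% of genes were called higher. In Sp1ΔDBD/ΔDBD cells it was 1.37 (95% interval 0.27 to 2.47, limma adjusted p = 0.147), and 1.12 with a limma adjusted p of 0.00622 with a pseudocount of 1. The direct difference between the mutants was 1.89 (standard error 0.524, limma adjusted p = 0.0328), lost without Sp1ΔDBD/ΔDBD replicate 2 or either Sp3-/- replicate (1.19 to 2.58 over the 4 libraries left out, limma adjusted p at most 0.459). It was also lost with the GC and length correction (1.25, limma adjusted p = 0.190) and with Flk1+ cells fitted alone (limma adjusted p = 0.101).

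Outside Flk1+ cells Sp5 was below 0.6 FPKM in all 24 libraries and at the library's lowest value, which 398 to 1660 genes share, in 15 of them. In ESC it had 0.544 and 0.328 FPKM in WT, 0.0519 and 0.299 in Sp1ΔDBD/ΔDBD and, listed at 0 in the first replicate, 0 and 0.102 in Sp3-/- cells. The lower level in Sp3-/- ESC was called (-1.88, limma adjusted p = 0.0258) but not with a pseudocount of 1 (-0.45, limma adjusted p = 0.252), without Sp3-/- replicate 1 (-1.37) or without WT replicate 1 (-1.59). The change in Flk1+ cells exceeded that in ESC by 5.14 (95% interval 3.59 to 6.69, limma adjusted p = 0.00158), where 1.48% of genes were called, and by 3.30 with a pseudocount of 1.

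Sp8, a close relative of Sp5, moved in the same cells. It had 5.42 and 6.0 FPKM in Sp3-/- Flk1+ cells, 1.15 and 0.707 in WT and 3.22 and 1.49 in Sp1ΔDBD/ΔDBD cells (Sp3-/- against WT 2.53, limma adjusted p = 0.00104). Sp6 stayed at or below 1.53 FPKM in every library, and Sp7 and Sp9 were not analysed here.

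Of 11 Wnt and primitive streak genes tested, 2 rose and 1 fell in Sp3-/- Flk1+ cells, where 12.6% of all genes were called and 6.69% were called higher, with a median of 0.433 beside 0.000 for all genes. Fgf8, a growth factor of the streak, had 33.6 and 23.6 FPKM against 7.03 and 5.13 FPKM in WT (2.21, limma adjusted p = 0.00736). Tbx6, a paraxial mesoderm factor named after its values were seen, had 7.26 and 10.6 against 3.74 and 3.84 FPKM (1.19, limma adjusted p = 0.0416). Notum, a secreted Wnt inhibitor, had 0.558 and 0.681 against 2.44 and 3.27 FPKM (-2.03, limma adjusted p = 0.00536). T, the defining factor of the streak, had 128 and 112 against 41.9 and 31.6 FPKM, which was not called (1.72, limma adjusted p = 0.0572), and the Wnt targets Axin2, Lef1, Tcf7 and Nkd1 had changes from -0.15 to 0.43. In the other Sp3-/- populations none of the 11 was called. In Sp1ΔDBD/ΔDBD cells at most 1 rose and 1 fell in a population, beside 5.54% to 10% of all genes. Those that fell were Notum in Flk1+ (-2.55), Tcf7 in HE1 (-2.22) and HE2 (-1.87) and Lef1 in progenitor cells (-1.70). Those that rose were Axin2 in HE1 (0.95, limma adjusted p = 0.0480) and Nkd1 in HE2 (1.32, limma adjusted p = 0.0199). The summed ESC markers were higher in Sp3-/- Flk1+ libraries as well, at 97.0 to 99.8 FPKM against 35.5 to 46.6 FPKM in WT, with Sox2 below 1 FPKM in both and Esrrb below 1 FPKM in Sp3-/- cells, and so were the Flk1+ mesoderm markers, which include T, at 592 to 657 against 357 to 378 FPKM. Their part in the Sp5 result was not tested, nor was that of the time in embryoid body culture, which may differ between the lines.

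**Figure D4:**
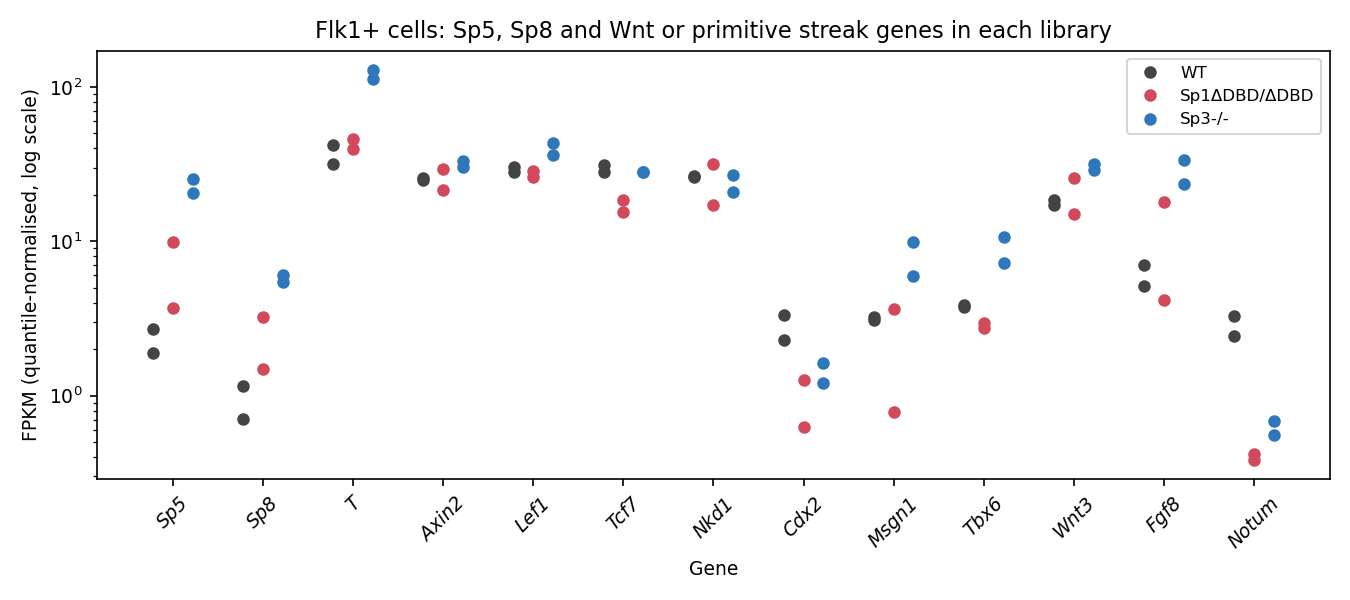
FPKM (vertical axis, log scale) in each Flk1+ library of Sp5, Sp8 and 11 Wnt or primitive streak genes, for WT (grey), Sp1ΔDBD/ΔDBD (red) and Sp3-/- (blue) cells. Sp5, Sp8, Tbx6 and Fgf8 were called higher in Sp3-/- than in WT cells, where 6.69% of all genes were called higher. Notum was called lower, and the other genes drawn were not called between these genotypes.

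Counted by comparison, 1, 2, 2, 2 and 2 of the 5 Sp genes were called in Sp1ΔDBD/ΔDBD ESC, Flk1+, HE1, HE2 and progenitor cells, where 6.06%, 5.54%, 10%, 9.67% and 8.78% of all genes were called. In Sp3-/- cells 3, 3, 1, 1 and 1 were called, beside 11.3%, 12.6%, 10.9%, 13.8% and 8.65% of all genes. Each of these counts in Sp3-/- cells includes Sp3 itself, and 3 of those in Sp1ΔDBD/ΔDBD cells include Sp1. The median log2 fold change of the 5 genes ran from 0.005 to 0.71 in Sp1ΔDBD/ΔDBD and from -0.327 to 0.509 in Sp3-/- cells, and that of all genes from 0 to 0.049 and from -0.022 to 0.05.

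The summed mRNA of the 5 genes was near that of WT in most Sp1ΔDBD/ΔDBD populations and lower in all Sp3-/- populations. The Sp1 values of Sp1ΔDBD/ΔDBD cells, 20.5% to 38.4% of their sums, belong to the mutated gene, whose protein lacks the DNA-binding domain. These sums therefore do not measure Sp protein able to bind DNA. Relative to the WT mean the sum was 101% for Sp1ΔDBD/ΔDBD progenitor cells, 119% for HE2, 142% for HE1, 105% for Flk1+ cells and 99.2% for ESC. The gain of Sp4 was 9.63, 9.12, 9.05, 9.63 and 7.77 FPKM in this order, beside losses of Sp1 of 11.8, 9.60, 1.34, 15.6 and 11.6 FPKM. The library sums of mutant and WT overlapped in progenitor cells (81.0 and 90.9 against 99.1 and 71.5 FPKM). They also overlapped in HE2 (72.8 and 94.2 against 76.9 and 63.2 FPKM) and in ESC (89.0 and 110 against 94.9 and 106 FPKM). In Flk1+ cells they were 97.2 and 98.5 against 92.1 and 93.6 FPKM. The larger sum in HE1, 71.9 and 88.8 FPKM against 57.5 and 55.9 FPKM, held a gain of Sp3 of 16.7 FPKM. Sp4 thereby moved from 5.54% to 27.5% of the Sp1 level in ESC and from 9.34% to 70.2% in progenitor cells, and it stayed below Sp1 in both.

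Relative to the WT mean the sum was 52.6% for Sp3-/- progenitor cells, 56.8% for HE2, 72.0% for HE1, 81.3% for Flk1+ cells and 60.6% for ESC. Losses of Sp3 of 42.2, 30.5, 21.5, 32.3 and 36.7 FPKM stood beside changes of Sp4 of 0.61, 0.566, 0.488, 1.99 and -0.576 FPKM and of Sp2 of -0.0302, 1.22, 0.305, 1.89 and 5.20 FPKM. In Flk1+ cells Sp5 added 20.5 FPKM and made up 30.2% of the sum. The sums are descriptions of mRNA and were not tested.

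**Figure D5:**
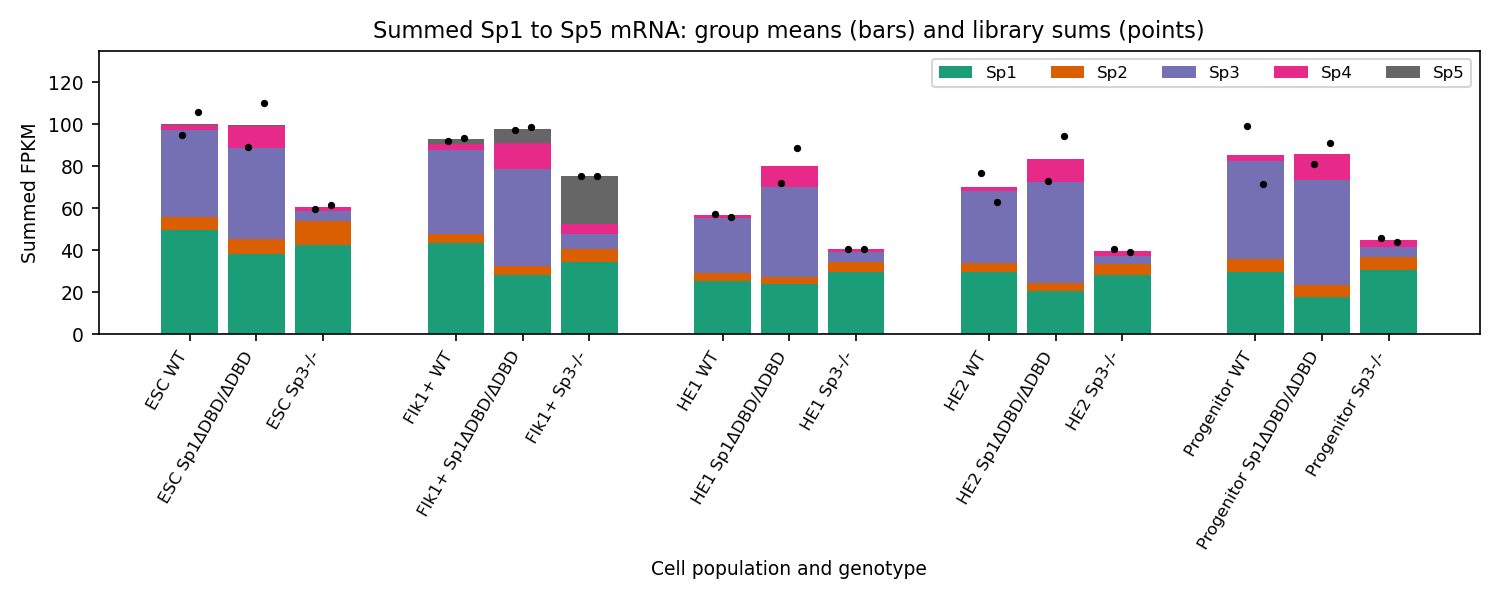
Summed FPKM of the 5 Sp genes (vertical axis) by population and genotype, as stacked group means with the sum of each library as points. The Sp3-/- bars are the lowest of each population, at 39.8 to 75.5 FPKM, and the Sp4 segment is largest in Sp1ΔDBD/ΔDBD cells.

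Of 14 partners and modifiers of Sp proteins, 1 to 3 were called higher and none lower in the Sp1ΔDBD/ΔDBD populations, and at most 1 in each direction in the Sp3-/- populations. Of all genes, 5.54% to 10% were called in the former and 8.65% to 13.8% in the latter, so that 1 of 14 is not set apart from them. E2f1, a cell cycle factor that binds Sp1, had 9.66 and 9.20 against 3.36 and 6.45 FPKM in Sp1ΔDBD/ΔDBD ESC (1.0, limma adjusted p = 0.0184), and was called in Sp3-/- HE2 cells too (0.81). Sin3a, a corepressor scaffold, was higher in Sp1ΔDBD/ΔDBD HE1 (0.81, limma adjusted p = 0.00347) and HE2 cells (0.67). Nfyc, a subunit of NF-Y, was higher in Flk1+ cells of both mutants (0.46 in Sp1ΔDBD/ΔDBD, 0.79 in Sp3-/-). The list medians lay between -0.001 and 0.326 in Sp1ΔDBD/ΔDBD and between -0.045 and 0.107 in Sp3-/- cells.

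Of 10 classical GC-box targets, at most 1 rose and between 1 and 3 fell in the Sp1ΔDBD/ΔDBD populations, with list medians from -0.501 to 0.062, beside the same 5.54% to 10% of all genes called in either direction. Tk1, thymidine kinase, was lower in progenitor cells, at 30 and 32.7 against 64.8 and 73.7 FPKM (-1.14, limma adjusted p = 1.20e-05), and was also called lower in ESC (-0.76), Flk1+ (-0.57) and HE2 cells (-0.56). Cdkn1a, the cell cycle inhibitor p21, was called in every Sp1ΔDBD/ΔDBD population, higher in ESC (0.95) and lower in Flk1+ (-1.18), HE1 (-0.65), HE2 (-1.12) and progenitor cells (-0.94). Aprt, a purine salvage enzyme, fell in HE2 (-1.21), with 89.1 and 33.6 against 152 and 105 FPKM. In Sp3-/- cells at most 1 rose and 1 fell, beside 8.65% to 13.8% of all genes called. Cdkn1a was higher in ESC (0.71) and lower in Flk1+ (-0.98), HE1 (-0.91) and progenitor cells (-0.80), and Ada, adenosine deaminase, was higher in Flk1+ cells (0.88, limma adjusted p = 0.0407).

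The genes most like each member over the 15 group means, among 12016 genes with a group mean above 3 FPKM, are given as a description. For Sp4 they were Zbtb37 (Pearson r 0.914), Rpgr (0.912) and 9930021J03Rik (0.901), and for Sp5 Nxph4 (0.980), T (0.963) and Dclk1 (0.962). For Sp3 they were the Y-linked Uty (0.956), Tmem87a (0.955) and Hnrnpk (0.928), for Sp1 Abhd14a (0.938), Cfap74 (0.934) and Ifitm2 (0.933), and for Sp2 Acot8 (0.962), BC051226 (0.950) and Tsfm (0.949). The groups share lines and cultures, so the 15 points are not independent.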

How the data were processed

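RNA was sequenced in 30 samples (5 populations, 3 genotypes, 2 replicates), from stranded ribosomal RNA-depleted libraries. The authors aligned reads to mm10 with HISAT2 2.1.0 and counted them with StringTie 1.3.3 (versions per the submitters' processing notes), removed genes never exceeding 1 FPKM and deposited quantile-normalised FPKM for 14685 genes. Quantile normalisation gives all libraries one distribution, so a global shift cannot be seen, and depth cannot be recovered. Groups came from the sample titles.

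FPKM were fitted as log2(FPKM + 0.1) with limma 3.58.1 (R 4.3.3), 15 groups, trended empirical Bayes, for the 14525 genes with a value above 1, and p-values were adjusted by the Benjamini-Hochberg method within each comparison (threshold 0.05, two-sided, residual degrees of freedom 15). Folds understate the change of low genes. With 2 against 2, an exact permutation test of 1 gene cannot go below p = 0.333. Libraries without overlap in a single population are therefore a description, and the share of all genes showing this is not given. In simulated data of 14525 genes with 200 changed by 2 on the log2 scale between Sp1ΔDBD/ΔDBD and WT ESC, 93.0% were called and 6.06% of calls were unchanged genes. The simulated libraries varied independently and low genes were left out of those changed. Smaller changes, low genes such as Sp5 and libraries that deviate together are thus not covered. The replicates are described as biological, but same-numbered HE1, HE2 and progenitor libraries of a genotype deviated together (r over 12108 genes: WT 0.371 to 0.433, Sp1ΔDBD/ΔDBD 0.414 to 0.618, Sp3-/- 0.0364 to 0.155), so libraries are not fully independent and p-values measure the spread between these samples.

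Named were the 5 members, at most 4 called genes of each list by absolute log2 fold change, the 3 genes with the highest Pearson r to each member over the group means (largest group mean above 3 FPKM) and the nearest tested gene on each side of a member, printed for Sp4. T, Tbx6 and the Wnt targets beside Sp5, Sp3os, the Y-linked genes and the marker sums were added. The members and lists were chosen with earlier results of these data known. Annotation was GENCODE M21 (GRCm38): 14370 symbols matched, 189 by an older symbol, 126 not. Alternatives were another pseudocount, no filter, a replicate block, no intensity trend, a GC and length correction, chromosome centring, single-population fits, averaged replicates and leaving out each library.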

Additional observations from a re-analysis of the deposited data

Results flagged for a closer look

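The change of Sp4 in Sp1ΔDBD/ΔDBD cells was called larger in HE1 than in ESC, by 1.18 on the log2 scale (limma adjusted p = 0.0456). This call was lost with a pseudocount of 1 (0.78), the GC and length correction (0.86), chromosome centring (1.07) and without some single libraries. In FPKM the gain of Sp4 was 9.05 in HE1, from a WT mean of 1.12, and 7.77 in ESC, from 2.76. The change of Sp5 in Sp3-/- cells was called larger in Flk1+ cells than in ESC, by 5.14 (limma adjusted p = 0.00158). With 2 samples per group, no test for single outlying samples was made.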

How the results depend on the processing

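The rise of Sp4 in Sp1ΔDBD/ΔDBD Flk1+, HE1, HE2 and progenitor cells, the loss of Sp3 in Sp3-/- cells and the rise of Sp5 in Sp3-/- Flk1+ cells kept their direction and call under every alternative. Removing the filter changed no call.

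With each population fitted alone the values stayed and these calls were lost: Sp4 (1.87) in Sp1ΔDBD/ΔDBD ESC, Sp1 in HE2 (-0.56) and progenitor cells (-0.76), Sp3 in HE1 (0.71), and in Sp3-/- cells Sp4 in Flk1+ (0.76), Sp2 (0.98) and Sp5 (-1.88) in ESC and the direct Sp5 difference (1.89). The numbers of genes called then fell to 2 of 880, 220 of 1458, 175 of 1405 and 86 of 1276 in Sp1ΔDBD/ΔDBD ESC, HE1, HE2 and progenitor cells, and to 611 of 1644, 1 of 1583, 13 of 2006 and 15 of 1257 in Sp3-/- ESC, HE1, HE2 and progenitor cells, while in Flk1+ cells 604 beside 804 (Sp1ΔDBD/ΔDBD) and 2089 beside 1835 (Sp3-/-) were called. With replicates averaged over populations the mean effects were no longer called (Sp1 -0.49 and Sp3 0.32 in Sp1ΔDBD/ΔDBD, Sp2 0.40 and Sp4 0.32 in Sp3-/- cells), and 1079 of 4634 and 1856 of 5885 genes were called.

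A pseudocount of 1 gave calls to Sp5 in Sp1ΔDBD/ΔDBD Flk1+ cells (1.12) and to its excess over ESC (1.41), and took them from Sp5 in Sp3-/- ESC (-0.45) and from the Sp4 excess in HE1 (0.78). The GC and length correction took calls from Sp2 in Sp3-/- ESC (0.83) and on average (0.31), Sp3 from Flk1+ to HE1 in WT (-0.22), the Sp4 excess in HE1 (0.86) and the direct Sp5 difference (1.25), and left 1090 of 1644 genes called in Sp3-/- ESC. It turned uncalled values of Sp1 in Sp3-/- cells (0.12 on average, 0.0381 in ESC, 0.17 in HE2), Sp2 in Sp1ΔDBD/ΔDBD cells (0.0465 on average, 0.0721 in progenitors), Sp3 in Sp1ΔDBD/ΔDBD progenitors (-0.0792), the Sp4 excess in progenitors (-0.0337) and Sp4 in Sp3-/- ESC (0.0333). Chromosome centring took the call from the Sp4 excess in HE1 (1.07) and turned uncalled values of Sp1 in Sp3-/- progenitors (-0.00953) and of Sp2 in Sp1ΔDBD/ΔDBD cells (0.25 on average, 0.14 in Flk1+, 0.23 in progenitors). Without the intensity trend Sp1 in Sp1ΔDBD/ΔDBD HE2 (-0.56) was not called. The cause was not tested.

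With the replicate block the call of Sp1 in Sp1ΔDBD/ΔDBD HE2 (-0.56) was lost and no other changed. The replicate numbers are shared by label alone. The differences between replicates 1 and 2 correlated across genes at 0.233 to 0.471 between WT and Sp1ΔDBD/ΔDBD and at 0.00365 to 0.200 between WT and Sp3-/- libraries of a population.

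Leaving out 1 library at a time gave these ranges where a call or direction changed. In Sp1ΔDBD/ΔDBD cells Sp1 ran from -0.71 to -0.55 in Flk1+ (uncalled without any 1), -0.34 to 0.15 in HE1, -0.79 to -0.34 in HE2 and -0.99 to -0.52 in progenitors (in both uncalled without WT replicate 1 or mutant replicate 1). Sp2 ran from -0.12 to 0.82 in ESC, -0.18 to 0.12 in Flk1+, -0.34 to 0.35 in HE2, -0.44 to 0.14 in progenitors and -0.13 to 0.0581 on average. Sp3 ran from -0.14 to 0.25 in ESC, 0.62 to 0.79 in HE1 and -0.21 to 0.51 in progenitors. In Sp3-/- cells Sp1 ran from -0.24 to 0.11 in HE2, Sp2 from 0.51 to 1.45 in ESC, -0.15 to 0.40 in HE1 and -0.27 to 0.31 in progenitors, Sp4 from 0.58 to 0.93 in Flk1+ and 0.27 to 0.36 on average (uncalled without HE2 Sp3-/- replicate 2), and Sp5 from -2.39 to -1.37 in ESC. The step of Sp3 from Flk1+ to HE1 ran from -0.64 to -0.57, the Sp4 excess over ESC from -0.00831 to 0.50 in Flk1+ and 0.91 to 1.46 in HE1, the direct Sp5 difference from 1.19 to 2.58 and the Sp5 excess in Sp1ΔDBD/ΔDBD Flk1+ cells from 1.77 to 3.16. Numbers of genes called ran from 254 to 1621 in Sp1ΔDBD/ΔDBD and from 400 to 1879 in Sp3-/- populations. The Sp5 excess was called without ESC Sp1ΔDBD/ΔDBD replicate 2.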
